A study of Mus musculus with 4 samples.

Results

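The tripartite motif (TRIM) genes were followed through a comparison of colon epithelium with and without an epithelial Cre recombinase in acute colitis. Members were all genes with a symbol of Trim followed by a digit that had at least 1 probe set assigned to a single gene. This gave 58 genes among the 18193 genes of the array. Each gene was represented by 1 of its probe sets, chosen by the highest mean intensity over the 4 arrays, so that its level follows from how it was picked and is no finding. A probe set is a group of short DNA probes for 1 transcript. Each Cre-positive array is given apart from the other throughout, and both are set against the same 2 Cre-negative arrays.

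All 4 mice were homozygous for floxed Stat3 (Stat3flfl), and all had drunk 2.5% dextran sodium sulphate (DSS) for 5 days, which injures the colon lining and starts colitis. Cre recombinase under the villin promoter, which is active in the epithelial cells of the gut, was carried by 2 mice (Cre-positive, VillinCre+) and not by the other 2 (Cre-negative, VillinCre-). One array was made from the colon epithelium of each mouse, no mouse without DSS was analysed here, and the labels give no ages. Values are log2 of the authors' GC-RMA intensities, on which a step of 1 is a doubling, and differences are Cre-positive minus Cre-negative means. Array intensities of different probe sets are not comparable as transcript amounts. Levels are therefore compared between arrays, within a gene or, for cell type markers, as a sum over the same probe sets. In such a sum the brightest probe sets weigh most.

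TRIM proteins carry a RING domain, which in most members transfers ubiquitin, followed by B-box and coiled-coil domains and a variable C-terminal part that sets the partner. Many of them act in innate immunity, as ligases or adaptors of the pathways that sense viral RNA and DNA, as cytosolic receptors or as restriction factors against retroviruses, and the genes of many of these are themselves induced by interferon. Others are transcriptional corepressors, microtubule-binding proteins of neurons or proteins of the sarcomere.

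Stat3, the floxed gene, was measured first. Its brightest probe set read log2 10.46 and 10.50 in the Cre-negative arrays against 9.28 and 8.16 in Cre-positive arrays 1 and 2, and another read 9.72 and 10.05 against 8.37 and 8.24, so both lay lower in both Cre-positive arrays. A dimmer one lay higher, at 6.82 and 6.11 against 5.60 and 4.75, and the remaining one read 2.11 to 2.23 on every array, the bottom of the scale. Where the probes lie relative to the floxed part is not known here. Epithelial markers were bright, with Epcam between 14.67 and 14.94. Over all genes tested, Cre-positive array 1 correlated with the other arrays at 0.981 to 0.987 and those with each other at 0.992 to 0.994. Cre-positive arrays 1 and 2 differed by over 1 in 5.5% of the genes tested and the Cre-negative arrays in 1.29%.

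Of the 58 TRIM genes, 44 exceeded the filter on dim signals (log2 2.81, the 40th percentile over probe sets) and were tested, and 14 did not. Trim67 was the dimmest inside the filter at a mean of 3.002 and Trim63 the brightest outside it at 2.72. The 14 were Trim10, Trim17, Trim42, Trim43a, Trim47, Trim54, Trim60, Trim63, Trim66, Trim69, Trim71, Trim72, Trim75 and Trim80, and they read 1.97 to 2.77 on every array. All 3 members of the striated muscle group on the array were among them: Trim63 (MuRF1) and Trim54 (MuRF3), ligases of the sarcomere, and Trim72, a membrane repair protein of muscle. In all 14 the Cre-positive mean was lower, by 0.02 to 0.07, and 95.5% of all genes this dim were lower too, so no change is read from these steps.

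Among the tested TRIM genes 29 of 44 had a higher Cre-positive mean, where 38.5% of all 12659 genes tested did. The median difference was 0.11, against -0.05 over all genes tested. With the 14 dim genes included it was -0.0037. Relative to the Cre-negative mean, array 1 had a TRIM median of 0.21 and array 2 one of 0.02, against -0.07 and -0.04 over all genes. The 2 Cre-positive arrays contributed unequally. In array 1, 16 of the 44 genes stood more than 0.5 above the Cre-negative mean and 3 more than 0.5 below it, where 9.95% and 11.9% of all genes did. In array 2 the numbers were 5 above and 3 below, where 4.37% and 3.59% of all genes were that far off. The plot of per-array differences shows this asymmetry gene by gene.

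**Figure D1:**
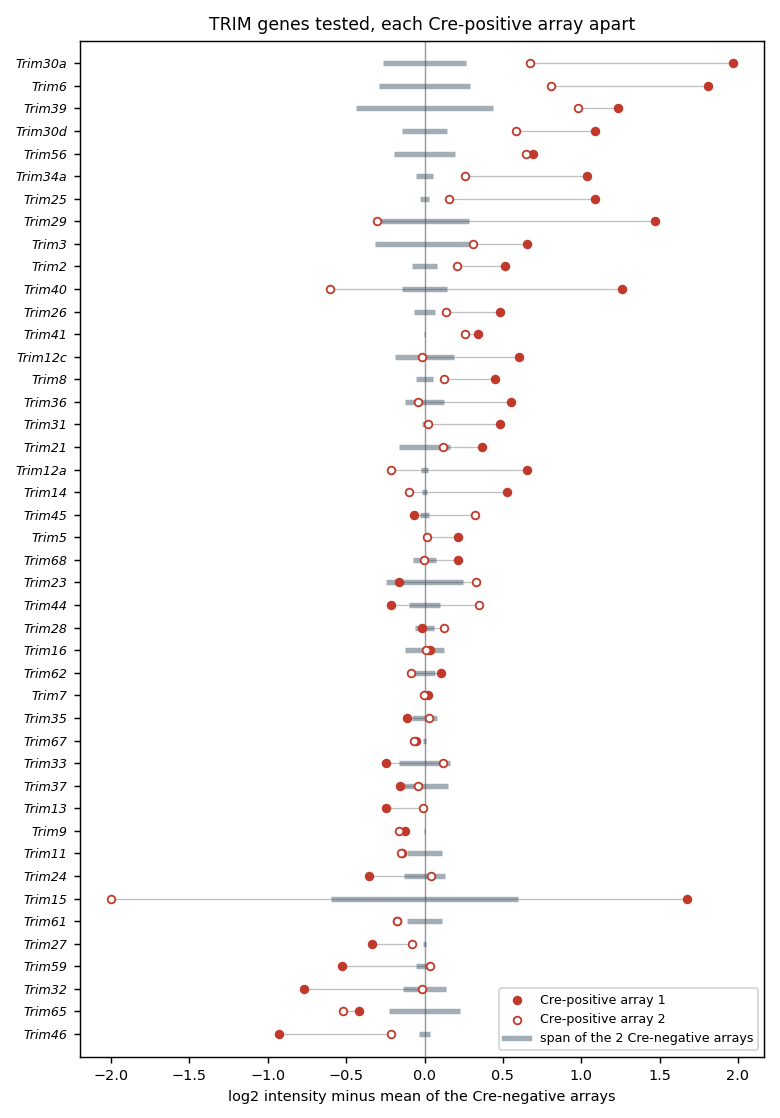
The 44 TRIM genes tested are ordered by their mean difference, and the x axis gives log2 intensity relative to the mean of the 2 Cre-negative arrays. Filled points are Cre-positive array 1, open points array 2, and the grey bar spans the 2 Cre-negative arrays. Trim30a, Trim6, Trim39, Trim30d and Trim56 have both points above 0.5, while for Trim15, Trim40 and Trim29 the points fall on opposite sides of 0.

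No TRIM gene passed the threshold of 0.05 in limma after Benjamini-Hochberg adjustment over all genes tested. The numbers were 0 higher and 0 lower, as over all genes, where 0% were called in either direction, and the smallest adjusted p was 0.285 among TRIM genes and 0.244 over all genes. At an unadjusted p under 0.05, 4 were higher and 2 lower, where 2.54% of all genes were higher and 8.51% lower. The 4 higher ones were Trim6, Trim39, Trim30d and Trim56, and the 2 lower ones Trim9 and Trim67. A fit that leaves out an array keeps 1 group with a single array, which is then assumed to vary like the other pair. Counts of genes under 0.05 in such fits are therefore not read as findings. They are given only where the dependence on the processing is described. Without Cre-positive array 1, 24 of the 44 genes had a higher mean. The share of all genes is not given for this comparison. Its median difference, that of array 2 alone, was 0.02 for the TRIM genes and -0.04 over all genes. Both Cre-positive arrays lay above both Cre-negative arrays in 13 TRIM genes and below both in 7, where 13.5% and 34.7% of all genes did so. Of the 7 that lay below, 4 were dim (Trim9, Trim61, Trim65 and Trim67, at or below the 60th percentile of log2 4.61), and at that brightness 67.7% of all genes lay below. In the authors' deposited table, whose test is not named, 3 of the 44 probe sets have a p-value under 0.05. Those are Trim41 (0.0174), Trim9 (0.0218) and Trim67 (0.0195). The share over all probe sets is not given here. Of the dim TRIM genes under the filter, all but Trim63, Trim72 and Trim80 have such a p-value too, at differences of -0.07 to -0.02. These p-values therefore also mark steps at the bottom of the scale.

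The TRIM genes known for interferon-inducible transcripts were all on the higher side. Of its 19 symbols 12 are on the array, all were tested, and 12 of 12 had a higher mean, with a median difference of 0.47. Array 1 alone gave a median of 0.67 and array 2 alone 0.15. Array 1 read above array 2 in 12 of 12, where this held for 41.2% of all genes tested. By itself no gene of this list passed limma's threshold (0 of 12), and 3 were higher at an unadjusted p under 0.05, where 2.54% of all genes were. The Cre-positive arrays lay above both Cre-negative arrays in 8 of the 12, where they did so in 13.5% of all genes. Of the 32 tested TRIM genes outside the list, 17 were higher and 15 lower, with a median of 0.01. The list was drawn up with earlier results of these arrays known, so its direction is a description.

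Trim30a, which in mouse cells restrains Toll-like receptor signalling to NF-kappaB, read log2 8.64 and 8.10 in the Cre-negative arrays and 10.34 and 9.05 in Cre-positive arrays 1 and 2. Array 1 was far above all others, and array 2 was above both Cre-negative arrays by less than the gap between arrays 1 and 2. The means were 8.37 ± 0.38 and 9.69 ± 0.92 (SD, n = 2 per group), a difference of 1.32 (SE 0.53, limma adjusted p = 0.493). A second Trim30a probe set gave 8.22 and 8.03 against 10.03 and 8.55.

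Trim30d, a relative of Trim30a, read 9.95 and 9.67 against 10.90 and 10.39, with no overlap. The difference of 0.84 (SE 0.23) is 1.79-fold (limma adjusted p = 0.39), and the other Trim30d probe set differed by 0.56. One further probe set is assigned to both genes and is therefore not counted for either. It read 6.46 and 6.40 against 7.72 and 6.81. Probes of these relatives may bind each other's transcripts, so their values are not independent.

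Trim6, which in human cells makes the free ubiquitin chains that activate the kinase IKK-epsilon, read 4.599 and 4.02 against 6.12 and 5.12. Both Cre-positive arrays were higher, but both Cre-negative values lie below the 60th percentile of intensity, where the scale is compressed. The difference was 1.31 (SE 0.44, limma adjusted p = 0.445). The other Trim6 probe set, under the filter, read 2.70 and 2.70 against 3.12 and 2.68. With the mean of all its probe sets the Trim6 difference was 0.76. Trim56, a ligase described as acting on the DNA-sensing adaptor STING, had its Cre-positive arrays closest together in the list. It read 7.23 and 7.62 against 8.12 and 8.08, a difference of 0.67 (SE 0.20, limma adjusted p = 0.406).

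Trim34a, a relative of the retroviral restriction factors, read 8.16 and 8.26 against 9.25 and 8.47. Trim25, the ligase that ubiquitinates the RNA sensor RIG-I, read 11.08 and 11.14 against 12.20 and 11.27. In both genes array 1 carried the difference, and array 2 lay 0.26 and 0.16 above the Cre-negative mean. Their differences were 0.65 and 0.62 (limma adjusted p = 0.528 and 0.553). A second Trim25 probe set gave the same picture (10.78 and 10.80 against 11.98 and 11.06), while its remaining probe set put array 2 lowest of all (8.45 and 8.76 against 9.54 and 8.04). Another Trim34a probe set was dim and differed by -0.04, and of 2 probe sets assigned to both Trim34a and Trim34b one differed by 0.27 and one by -0.19.

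In the rest of the list array 2 lay close to the Cre-negative arrays or below them. Trim26, described as a regulator of IRF3, read 8.93 and 8.79 against 9.34 and 8.996. The other Trim26 probe set went the other way, at 7.76 and 8.25 against 8.07 and 7.28, a difference of -0.33 with array 2 lowest. Trim21, the cytosolic antibody receptor, read 7.08 and 7.41 against 7.61 and 7.36, and the groups overlapped. Trim14, an adaptor at the mitochondrial protein MAVS, read 9.20 and 9.17 against 9.71 and 9.09, so that array 2 was the lowest.

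Trim12a and Trim12c, mouse relatives of the human capsid-binding restriction factor TRIM5, showed this too. Trim12a read 8.44 and 8.48 against 9.12 and 8.25. Trim12c read 8.80 and 9.17 against 9.59 and 8.97. Trim5, the mouse gene of that name, differed by 0.12, from 4.71 and 4.73 to 4.93 and 4.73. Without Cre-positive array 1 the differences of Trim12a, Trim12c and Trim14 changed sign, to -0.22, -0.02 and -0.10.

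**Figure D2:**
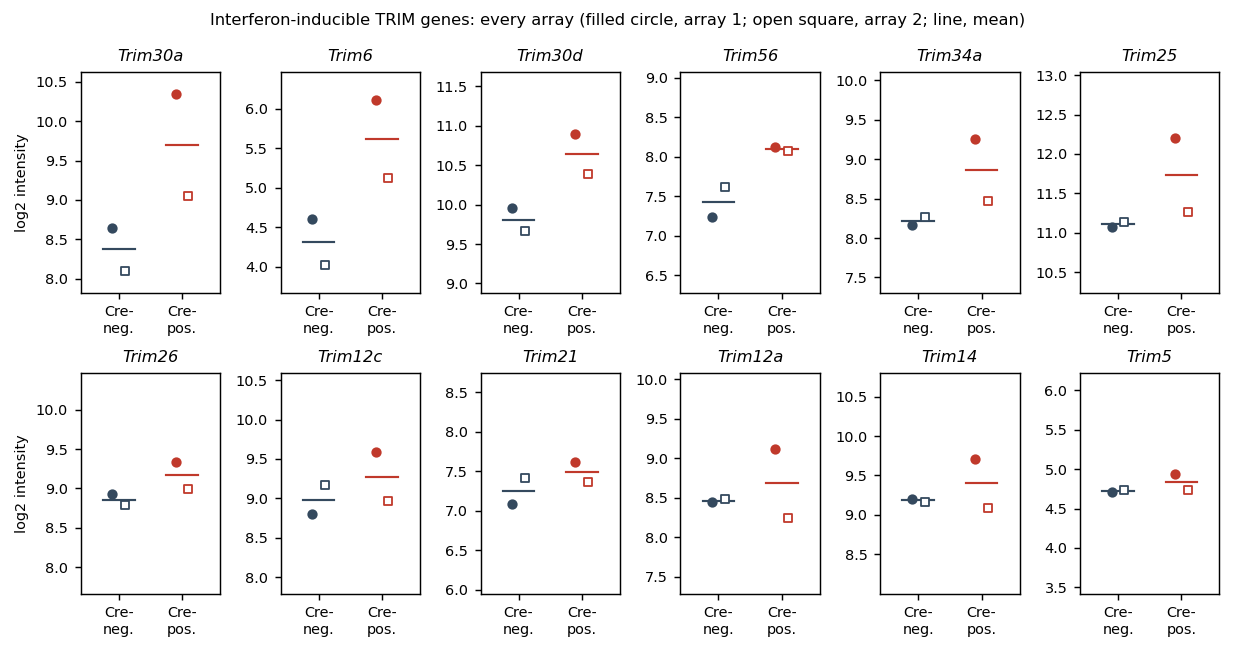
Each panel is one of the 12 interferon-inducible TRIM genes, the y axis is log2 intensity over a range of equal height in every panel, and lines are means of 2 arrays. Filled circles are array 1 and open squares array 2 of each group. In Trim56 the Cre-positive arrays coincide at 8.12 and 8.08, whereas in Trim25 array 1 lies at 12.20 and array 2 at 11.27, beside the Cre-negative arrays.

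Markers of other cell types also differed between the arrays. Summed over the neutrophil markers on the array (10 of 11 genes in the list, 5 of them above the filter), linear intensity was 157 and 104 in the Cre-negative arrays, 1591 in Cre-positive array 1 and 109 in array 2. The sum in array 1 came almost wholly from S100a8, at log2 9.70 against 4.79 to 5.91 elsewhere, and S100a9, at 9.46 against 4.54 to 5.44. Csf3r, Mmp9 and Lcn2 were dim on all arrays (2.79 to 3.52) and differed by -0.10 to 0.04, and Cxcr2, Mmp8, Camp, Ltf and Ngp lay at the bottom of the scale on all arrays. The macrophage and monocyte sum (11 of 13 genes) was 1904 and 1876 against 2015 and 1484, with Cd68, Itgam and Fcgr1 at the bottom. Most of that sum was Cd14, which lay lower in both Cre-positive arrays (difference -0.36). C1qa, C1qb and Lyz2 lay higher in both, by 0.87, 0.48 and 0.85. Adgre1 and Csf1r differed by only -0.016 and -0.012, and Mrc1 differed by 0.94 with overlapping groups. Of the tested markers 4 had a higher mean and 3 a lower one. Relative to the Cre-negative mean, array 1 had a median of 0.39 and array 2 one of 0.17. For the difference of means, the median over the 7 tested markers was 0.48. T and NK cell markers (13 of 15 genes) summed to 1464 and 1356 against 1431 and 1756, so they were highest in array 2, with Cd5 at the bottom and a median difference of 0.38 over the 11 tested. B and plasma cell markers (8 of 10) summed to 7552 and 5123 against 10186 and 5888, nearly all of it Sdc1, which epithelium also expresses, with Cd79a, Cd79b, Mzb1, Pou2af1 and Cd22 at the bottom. Pan-epithelial markers (12 of 12) summed to 165396 and 162847 against 200664 and 165845. Fibroblast and smooth muscle markers (11 of 11) summed to 339 and 334 against 531 and 437, with Col1a2, Dcn, Lum, Acta2 and Tagln at the bottom. The higher sum was that of Vim (8.02 and 7.995 against 8.83 and 8.50), which leukocytes also express. Col3a1, Pdgfra, Myh11 and Des were dim and lay slightly lower, and the median over the 6 tested was -0.07. Endothelial markers (7 of 7) summed to 47.9 to 49.9, with 6 of them at the bottom, and skeletal and cardiac muscle markers (9 of 9) to 856 and 237 against 1010 and 272, with Myh2, Myh7, Tnnt3 and Actn2 at the bottom. Acta1 made up most of the muscle sum (9.63 and 7.46 against 9.89 and 7.73), and Myh4, Ckm, Ttn and Myl1 were dim. The part of any of these cells in the TRIM values was not tested, and in bulk tissue a change in cell numbers and a change in RNA per cell cannot be told apart.

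Since 9 of the 11 TRIM promoters with an interferon motif belong to the genes just described, the promoter letters are shown. RefSeq promoter windows (GRCm38.p6, 250 bases before to 50 after each annotated start) were found for 47 of the 58 TRIM genes. The core of the interferon-stimulated response element was searched as GAAANNGAA on both strands, and overlapping matches were counted once per gene. It occurred in 11 of 47 TRIM genes (23.4%) and in 9.76% of the 27025 genes with a window. The 11 were Trim2, Trim5, Trim7, Trim12a, Trim12c, Trim21, Trim25, Trim26, Trim30a, Trim30d and Trim34a. All 11 were tested and 11 had a higher mean, where 38.5% of all genes tested did. Their median was 0.31, with 0.60 in array 1 and 0.14 in array 2. Of the 23 tested genes with a window but no match, 12 had a higher mean. The median of those was 0.01, with -0.07 in array 1 and -0.003 in array 2. As 9 of the 11 are in the list drawn up with earlier results known, this contrast largely repeats that list. A match is a description of letters and not a shown binding site. The sequences below read 5′ to 3′ on the gene's strand, and capitals mark the motif, which reads as its reverse complement where the match is on the opposite strand. The coordinates are those of the printed stretch, and the distance given is that of the first base in capitals from the gene start. Trim30a, Trim21 and Trim26 each held a second match that is not marked, and the one printed for Trim30a belongs to 1 of its 2 annotated starts.
Trim30a (chr7:104465205-104465273, minus strand, motif 35 bases before the gene start): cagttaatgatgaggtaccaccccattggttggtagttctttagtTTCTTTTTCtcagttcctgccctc
Trim30d (chr7:104507866-104507934, minus strand, motif 40 bases before): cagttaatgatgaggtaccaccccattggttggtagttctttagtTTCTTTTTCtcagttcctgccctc
Trim34a (chr7:104244423-104244486, plus strand, motif 11 bases after): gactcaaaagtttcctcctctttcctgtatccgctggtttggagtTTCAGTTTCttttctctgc
Trim12a (chr7:104315466-104315529, minus strand, motif 11 bases after): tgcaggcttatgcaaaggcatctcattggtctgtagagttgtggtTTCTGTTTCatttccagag
Trim12c (chr7:104353354-104353422, minus strand, motif 28 bases before): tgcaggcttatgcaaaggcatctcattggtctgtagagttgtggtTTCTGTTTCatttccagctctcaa
Trim21 (chr7:102565453-102565514, minus strand, motif 13 bases after): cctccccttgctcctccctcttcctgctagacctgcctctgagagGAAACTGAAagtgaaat
Trim25 (chr11:88999349-88999417, plus strand, motif 9 bases before): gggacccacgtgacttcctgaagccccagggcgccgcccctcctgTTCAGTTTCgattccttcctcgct
Trim26 (chr17:36836942-36837010, plus strand, motif 159 bases before): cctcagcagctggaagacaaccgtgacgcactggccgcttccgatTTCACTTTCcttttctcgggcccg

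The chromosome 7 sequences are not independent of each other. Aligned on the motif, the stretches of Trim30a and Trim30d matched in 69 of 69 bases and those of Trim12a and Trim12c in 62 of 64. That of Trim5, not printed, matched Trim12a in 64 of 64 and Trim12c in 67 of 69. In array 2, Trim30a and Trim30d stood 0.67 and 0.59 above the Cre-negative mean, Trim12a stood at -0.22 and Trim12c at -0.02. Trim6, Trim39 and Trim56, which lay higher in both Cre-positive arrays, had a window without a match. The motif bound by STAT dimers, TTCNNNGAA, occurred in 4 of 47 TRIM genes (8.51%, against 9.55% of all genes). These were Trim15, Trim31, Trim45 and Trim46, of which 2 had a higher mean.

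Both groups of neighbouring TRIM genes held high members. On chromosome 7, Trim6, Trim34a, Trim5 and Trim12a follow one another with no other coding gene annotated between them, and Trim12c, Trim30a and Trim30d follow with 4 other coding genes among them. All 7 lay above the Cre-negative mean in Cre-positive array 1, by 0.21 (Trim5) to 1.97 (Trim30a). In array 2 they ranged from -0.22 (Trim12a) to 0.81 (Trim6).

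On chromosome 17 the order is Trim39, Trim26, Trim15, Trim10, Trim40 and Trim31, the last 5 of them directly adjacent. Trim39, which stabilises the apoptosis factor MOAP1 and inhibits the anaphase-promoting complex, read 5.78 and 4.91 against 6.58 and 6.33. Both Cre-positive arrays were higher and the Cre-negative arrays lay apart from each other. The difference was 1.11 (SE 0.36, limma adjusted p = 0.435). It is the largest among the TRIM genes outside the interferon-inducible list.

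Trim15, which in human cells is a focal adhesion protein, had the widest spread of all TRIM genes. It read 9.24 and 8.05 in the Cre-negative arrays, 10.32 in Cre-positive array 1 and 6.64 in array 2. The Cre-positive arrays were thus the highest and the lowest, 3.68 apart, and the mean difference of -0.16 (SE 1.45, limma adjusted p = 0.971) describes neither. Its next measured neighbour Trim40, a gut-expressed inhibitor of NF-kappaB signalling, was ordered alike across the 4 arrays, at 9.12 and 8.84 against 10.24 and 8.38. Trim31, which in mouse promotes the aggregation of MAVS, read 10.69 and 10.65 against 11.15 and 10.69. Only array 1 stood apart there, and the difference was 0.25 (limma adjusted p = 0.611). Trim10, the gene between Trim15 and Trim40 in that order, was dim on all arrays.

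**Figure D3:**
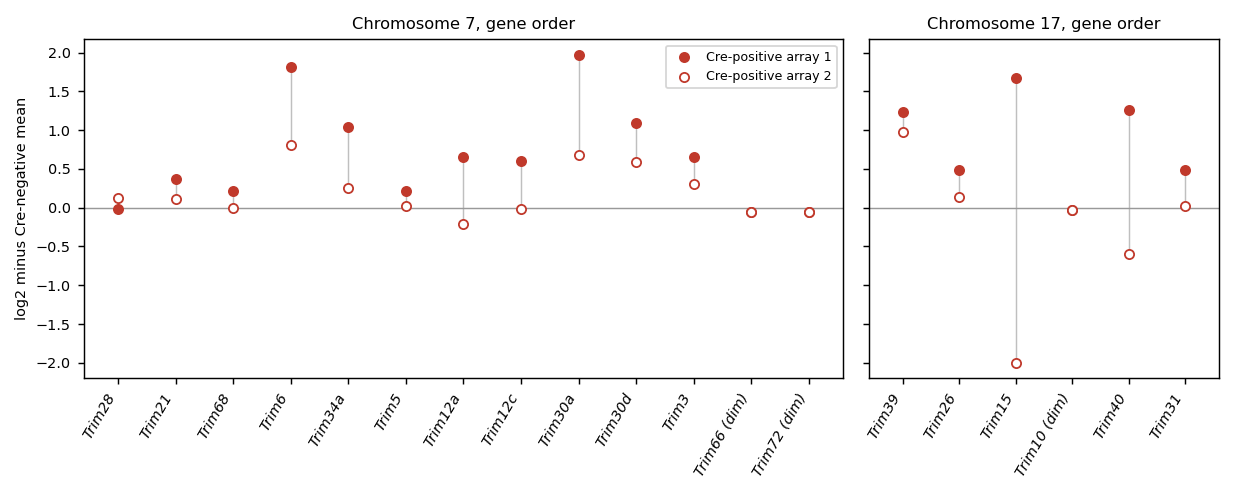
TRIM genes of chromosomes 7 and 17 are placed on the x axis in gene order, not to scale, and the y axis gives log2 intensity relative to the Cre-negative mean. Filled points are Cre-positive array 1 and open points array 2, and genes marked dim were under the filter. From Trim6 to Trim30d every filled point lies above 0, and Trim15 has its points at 1.68 and -2.0.

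The Cre-positive arrays differed by over 1 in 4 TRIM genes. Array 1 was the higher one in all of them (Trim15, Trim40, Trim29 and Trim30a), where 3.21% of all genes were higher by this much in array 1 and 2.29% in array 2. Trim29, a member without a RING domain known from squamous and other epithelia, read 3.90 and 3.33 against 5.08 and 3.31. Outside array 1 it was dim, and without array 1 its difference of 0.58 became -0.30.

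Of the corepressor group 1 of 3 tested genes had a higher mean, and in each the groups overlapped. Trim28 (KAP1), which silences retroelements together with KRAB zinc finger proteins, read 10.75 and 10.62 against 10.67 and 10.81. Trim24 and Trim33, its relatives and regulators of nuclear receptors and of SMAD4, differed by -0.16 and -0.06. In all 3 array 1 read below array 2. Of 10 tested genes of the KAP1 partner list 7 were higher (median 0.14), where 38.5% of all genes were. In limma 0 of 10 passed, and 2 were higher at an unadjusted p under 0.05, where 2.54% of all genes were. Those of smallest unadjusted p were the nucleosome remodellers Chd3 (6.99 and 7.32 against 7.98 and 7.94) and Chd4 (9.06 and 8.98 against 9.32 and 9.36). Both lay higher in both Cre-positive arrays, by 0.80 and 0.32 (limma adjusted p = 0.32 and 0.434).

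In the microtubule group 1 of 4 tested genes had a higher mean. Trim46, known from the axon initial segment, read 7.41 and 7.48 against 6.51 and 7.23. It lay lower in both Cre-positive arrays, mainly in array 1, by -0.57 in the mean (SE 0.305, limma adjusted p = 0.544), the largest negative difference of a TRIM gene. Trim36 read 8.09 and 7.84 against 8.52 and 7.93. Trim9 and Trim67, neuronal ligases, were dim (2.97 to 3.36) and differed by -0.14 and -0.06. Their limma adjusted p were 0.285 and 0.434. Among all genes as dim as that, between the 40th and 60th percentiles, 28.4% were lower at an unadjusted p under 0.05, so no change is read from them. Neuron and glia markers (9 of 11 on the array) summed to 89.0 and 93.9 in linear intensity against 84.0 and 81.7, with Elavl3, Uchl1, Gfap and S100b in the dimmest band on all arrays.

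In the NHL group 2 of 3 tested genes had a higher mean. Trim2, a ligase known from neurons, had the brightest TRIM probe set, at 11.74 and 11.90 against 12.33 and 12.02. Both Cre-positive arrays were higher, and the difference was 0.36 (SE 0.15, limma adjusted p = 0.502). This probe set is of a kind (x in its identifier) that may bind unrelated transcripts. Its other 5 probe sets differed by -0.24 to 1.59, the last from the dim values 2.92 and 2.94 to 4.73 and 4.31. Trim32, a ligase mutated in a human limb-girdle muscular dystrophy, read 6.998 and 7.28 against 6.37 and 7.12, and Trim3 4.88 and 4.24 against 5.22 and 4.87, both with overlapping groups.

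Among the remaining members the differences ranged from -0.47 (Trim65) to 0.30 (Trim41), each by the probe set that stands for the gene. Trim41 read 8.63 and 8.62 against 8.96 and 8.89, close together within each group, a difference of 0.30 (SE 0.11, limma adjusted p = 0.476). A dim second Trim41 probe set read 3.49 and 2.41 against 4.54 and 3.47. It was far apart within each group and overlapped between them, at a difference of 1.05. Trim8, which has been linked to SOCS1, the inhibitor of JAK-STAT signalling, read 8.04 and 7.92 against 8.43 and 8.10, and its second probe set went the other way by -0.50. Trim27, a nuclear ligase first known as a RET fusion partner, read 10.31 and 10.28 against 9.96 and 10.22 and was on the lower side in all 5 of its probe sets above the filter, 3 of them bright.

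Trim65, described as a ligase of the RNA sensor MDA5, read 4.35 and 4.81 against 4.16 and 4.06, at the dim end of the scale, a difference of -0.47 (SE 0.18, limma adjusted p = 0.486). Trim59, a membrane protein of the endoplasmic reticulum, read 8.46 and 8.58 against 7.997 and 8.56. It was array 1 that lay low there. Trim61 was dim, at 3.28 and 3.50 against 3.21 in both Cre-positive arrays. Trim44 read 8.26 and 8.45 against 8.14 and 8.70. The other members above the filter, Trim5, Trim7, Trim11, Trim13, Trim16, Trim23, Trim35, Trim37, Trim45, Trim62 and Trim68, differed by -0.15 (Trim11) to 0.13 (Trim45).

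Probe sets of 1 gene often disagreed. Of 23 TRIM genes with several probe sets above the filter, 13 had differences of both signs. Trim24 was at -0.16 by its brightest probe set and at 1.42 by a dim one (2.89 and 2.82 against 5.20 and 3.34). Trim44 was at 0.07 by its brightest and at -1.10 by a dim one (3.56 and 5.08 against 3.30 and 3.14). Trim37, by contrast, was on the lower side in all 4, at -0.10 in its brightest and down to -0.80 in another (6.31 and 6.52 against 5.02 and 6.21). For Trim30a, Trim30d, Trim25 and Trim12c all probe sets above the filter were on the higher side.

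**Figure D4:**
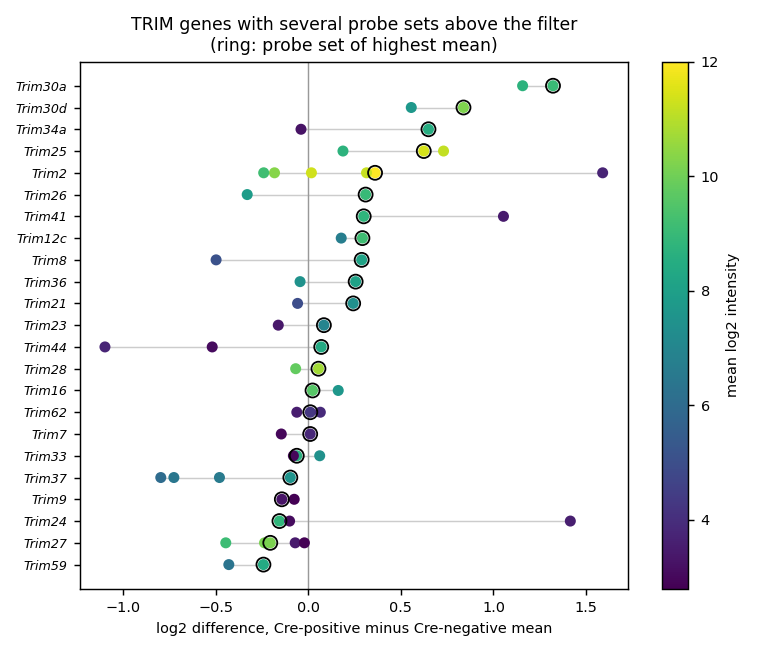
Each point is a probe set above the filter of the 23 TRIM genes that have several, the x axis is the log2 difference between group means, and colour gives the mean log2 intensity. A ring marks the probe set of highest mean, which stands for the gene. Points far from the ring are mostly dark, that is dim, as for Trim2 at 1.59, Trim24 at 1.42 and Trim44 at -1.10.

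The TRIM family has members under other symbols. Pml, the scaffold of nuclear bodies and itself interferon-induced, read 7.24 and 7.64 against 7.82 and 7.73, higher in both Cre-positive arrays by 0.34 (SE 0.20, limma adjusted p = 0.562). Mid2, a microtubule-binding ligase, differed by -0.07 and Mid1 by -0.19, and Mefv, which encodes pyrin, by 0.03 at a dim level.

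The pathways in which these proteins act were listed as well, and their counts stand beside the same shares of all genes tested, 38.5% with a higher mean and 2.54% higher at an unadjusted p under 0.05. In the RIG-I and STING pathway 10 of 13 tested genes had a higher mean (median 0.17, with 0.32 in array 1 and 0.11 in array 2), and 0 of 13 passed limma's threshold (1 under 0.05 unadjusted). Irf7, the transcription factor that amplifies interferon production, read 9.74 and 9.87 against 11.27 and 10.53. Ddx58, which encodes RIG-I, the partner of Trim25, read 6.30 and 6.66 against 7.36 and 6.81. Both lay higher in both Cre-positive arrays, by 1.10 and 0.60 (limma adjusted p = 0.371 and 0.525).

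Of interferon receptor and signalling genes 13 of 17 were higher (median 0.26, with 0.43 in array 1 and 0.04 in array 2), and 0 of 17 passed limma's threshold (2 under 0.05 unadjusted). Stat2, a transcription factor of the response to type I interferon, read 6.97 and 7.35 against 8.36 and 7.75, and the kinase Jak1 9.33 and 9.26 against 9.57 and 9.64. Interferon-stimulated genes outside the family were higher in 29 of 29, with a median of 0.79, and with 1.44 in array 1 and 0.32 in array 2. In limma 0 of 29 passed, and 4 were under 0.05 unadjusted. That direction was known from earlier results of these arrays. Ifi27l2a read 8.69 and 9.10 against 11.14 and 11.02, and Ifitm3, which blocks virus entry, 10.02 and 10.09 against 10.56 and 10.65. In these 2 genes, as in Trim56, the Cre-positive arrays lay together. Transcripts of the interferons themselves were dim. Ifnb1, Ifna2, Ifna4 and Ifna5 lay at the bottom on every array, and Ifng read 2.86 to 2.91. Of the 3 that exceeded the filter (Ifng, Ifna1 and Ifna9) 0 had a higher mean. Those 3 lay between the 40th and 60th percentiles, where 79.6% of all genes had a lower Cre-positive mean, so no change is read from them.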

How the data were processed

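The authors deposited linear intensities after GC-RMA, a method named in the submitters' processing notes. It removes a background estimated from each probe's GC content and makes the arrays' distributions alike, so undetected transcripts sit in a narrow band at the bottom. Log2 of these intensities was analysed here. A second deposited table gave rounded intensities, log2 values relative to a baseline, an absolute fold (ratio) and a p-value per probe set. Of it only the p-values were used, whose test is not named per the file headers.

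Of 45101 probe sets, 34945 had 1 gene, 932 had several and were not used, and 64 were controls. All 58 TRIM symbols matched the reference gene table. Genes above the 40th percentile of probe set means entered the fit (12659), made with limma 3.58.1 under R 4.3.3 (intensity trend, two-sided, Benjamini-Hochberg over all genes, threshold 0.05), with 2 residual and 1.58 prior degrees of freedom. SE is limma's moderated error. With 2 arrays a group, the smallest p of an exact permutation test is 0.333, and precision is limited by the number of arrays. The fit was tested on simulated data. Members and lists were chosen with earlier results of these data known. Named were the 8 smallest p in each direction, the interferon-inducible list, the 5 brightest probe sets, genes whose Cre-positive arrays differ by over 1, those with probe sets of opposite sign (over 0.5), and 2 genes of other lists; other names were chosen after their values were seen. Alternatives were other filters, median centring, averaged probe sets, no trend, a replicate block and leaving out each array. A planned comparison of TRIM protein sequences was not made.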

Additional observations from a re-analysis of the deposited data

How the results depend on the processing

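No TRIM gene and no other gene passed the adjusted threshold under any of the 10 alternatives. The number of TRIM genes at an unadjusted p under 0.05 (6) was 20 with no filter on dim genes, 2 with the mean of all probe sets, 3 without an intensity trend, and 1 to 17 when single arrays were left out. The counts with single arrays left out come from fits in which 1 group has a single array, assumed to vary like the other pair. No conclusion is drawn from those counts. With no filter the 14 dim genes join the test. The TRIM median in Cre-positive array 1 (0.21) was -0.027 with no filter and 0.37 with a filter at the 60th percentile. With the replicate number as a replicate block 7 TRIM genes were under 0.05 unadjusted, again without the share of all genes. Same-numbered arrays deviated together (r = 0.42 over genes tested), but with 2 pairs and no statement in the labels they share only a number. The TRIM median difference (0.11) was -0.0037 with no filter and 0.22 with the filter at the 60th percentile, and the array 2 median (0.019) was -0.016 with no filter and -0.0070 with the mean of all probe sets. Of 30 named TRIM genes 19 kept their direction in every alternative in which they were tested. With the mean of all probe sets Trim24 (0.39), Trim26 (-0.011), Trim28 (-0.0075) and Trim44 (-0.52) changed sign. With single arrays left out, differences ranged from -0.35 to 0.039 for Trim24, -2.0 to 1.68 for Trim15, -0.21 to 0.35 for Trim44, -0.014 to 0.12 for Trim28, -0.22 to 0.66 for Trim12a, -0.018 to 0.60 for Trim12c, -0.10 to 0.53 for Trim14, -0.30 to 1.47 for Trim29, -0.60 to 1.26 for Trim40 and -0.52 to 0.038 for Trim59. The cause of these changes was not tested.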
